A study of Mus musculus with 8 samples.

Results

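The 50 genes described here encode proteins that carry a cell through mitosis: the cyclin-dependent kinase CDK1 and its cyclins, the mitotic kinases, the spindle checkpoint, the kinetochore, spindle motors, the central spindle and cytokinesis machinery, condensin and the targets of the anaphase-promoting complex. They were taken by symbol from a list of names, and all 50 were found among the 14162 genes of the deposited table and passed the filter on low values. The table covers 8 RNA sequencing libraries of mouse hepatic stellate cells in 4 groups of 2 replicates (a and b). The groups are quiescent cells, activated cells, and activated cells to which either miR-15a or a control microRNA was added. Per the series' design text, the libraries were made to predict genes likely to be targeted by miR-15a. Mice of the strains C57BL/6J and SCID are named in the labels, neither being tied to a library. They give no dose, time, age or way of delivering the microRNA and no way of activating the cells, and they leave unsaid whether replicates are distinct animals or cultures. The p-values therefore reflect the spread between replicate libraries alone, and that spread may be technical.

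Hepatic stellate cells store vitamin A in the healthy liver and, when activated by injury or by culture, re-enter the cell cycle and become matrix-producing myofibroblasts. Mitotic genes are transcribed late in the cell cycle. In resting cells the DREAM complex, built on the MuvB core, holds many of them silent through a promoter element called the CHR (cell cycle genes homology region). In dividing cells MuvB works with B-MYB and FOXM1 to switch them on, often together with NF-Y bound at CCAAT boxes. miR-15a belongs to a microRNA family known for targeting cell cycle regulators such as cyclin D1 and cyclin E1.

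The mature miR-15a-5p of RefSeq (GRCm38.p6, chr14:61632075-61632096, minus strand) is shown first because its seed, bases 2 to 8 in capitals, sets which transcripts it can pair with. In all, 11 mature mouse entries of RefSeq, miR-15a-5p included, carry this seed, among them miR-15b-5p, miR-16-5p, miR-195a-5p, miR-322-5p and miR-497a-5p.
miR-15a-5p: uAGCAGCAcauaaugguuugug

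The promoter stretches below show the elements the mitotic genes share. Each runs from 120 bases before to 30 after the RefSeq gene start (GRCm38.p6), on the gene's strand, and capitals mark the CHR hexamer (TTTGAA or TTCGAA) and the CCAAT box, each on either strand. Ccnb2, Cdc20, Cdk1, Cdca8 and Prc1 stand for members with both elements, and Pttg1 for a member with neither near the RefSeq start used. In GENCODE M21 the genes Pttg1 and Cdca8 start further upstream, at chr11:43426251 and chr4:124939311. Bases before those starts were not searched. In the Cdca8 stretch a CHR hexamer and a CCAAT box share bases, so they are printed as one run of capitals. The stretches lie at chr9:70421525-70421674 (Ccnb2, minus strand), chr4:118437314-118437463 (Cdc20, minus), chr10:69352883-69353032 (Cdk1, minus), chr4:124936888-124937037 (Cdca8, minus), chr7:80294331-80294480 (Prc1, plus) and chr11:43425952-43426101 (Pttg1, minus).
Ccnb2: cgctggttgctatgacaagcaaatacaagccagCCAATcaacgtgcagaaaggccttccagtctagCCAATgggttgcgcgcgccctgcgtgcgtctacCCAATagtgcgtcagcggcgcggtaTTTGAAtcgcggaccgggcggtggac
Cdc20: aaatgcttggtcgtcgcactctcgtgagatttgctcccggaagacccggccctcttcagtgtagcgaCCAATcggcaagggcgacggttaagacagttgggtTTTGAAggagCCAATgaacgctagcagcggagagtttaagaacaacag
Cdk1: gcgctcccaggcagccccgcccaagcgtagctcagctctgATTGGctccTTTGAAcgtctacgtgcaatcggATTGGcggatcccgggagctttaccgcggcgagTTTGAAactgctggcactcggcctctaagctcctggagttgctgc
Cdca8: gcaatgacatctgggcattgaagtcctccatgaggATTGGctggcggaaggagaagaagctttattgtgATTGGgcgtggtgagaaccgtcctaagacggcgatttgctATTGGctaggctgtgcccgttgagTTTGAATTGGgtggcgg
Prc1: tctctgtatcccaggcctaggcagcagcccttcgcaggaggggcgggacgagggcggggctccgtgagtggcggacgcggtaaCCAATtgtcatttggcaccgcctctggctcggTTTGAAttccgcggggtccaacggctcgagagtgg
Pttg1: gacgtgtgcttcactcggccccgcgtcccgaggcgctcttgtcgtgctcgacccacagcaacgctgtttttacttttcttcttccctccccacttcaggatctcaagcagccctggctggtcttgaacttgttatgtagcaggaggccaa

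RefSeq promoter windows, from 250 bases before to 50 after the start, were found for 41 of the 50 genes. A CHR hexamer stood in 31 of them (75.6%), against 14.3% of the windows of 9797 tested genes. Close to the start, from 100 bases before to 50 after, the counts were 29 (70.7%) and 5.52%. At least 1 CCAAT box was found in 75.6% of the members' windows and 39.3% of all windows, and both elements together in 28 of 41 (68.3%) and 6.07%. In a list of other mitotic genes that are no members, 36 of 58 windows (62.1%) held a CHR hexamer, while in a list of DNA replication and S phase genes 6 of 31 did (19.4%). The 10 windows without a CHR hexamer were those of Nuf2, Nek2, Kif18a, Nusap1, Plk4, Cenpe, Mad2l1, Pttg1, Birc5 and Ccnb1. Like Pttg1 and Cdca8, some other genes in these counts have a GENCODE M21 start outside their window. Kif2c, Cdca3 and Kif4, counted with a hexamer, start upstream of it, at chr4:117182639, chr6:124829547 and chrX:100625737. Mad2l1 and Plk4, counted without one, start past its end, at chr6:66535390 and chr3:40800019. A match is a run of letters in 1 listed start's window and was not tested for binding.

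**Figure D1:**
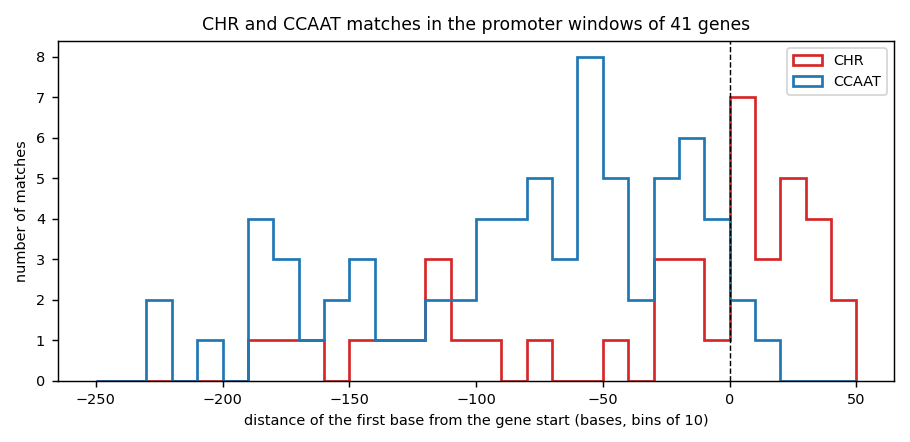
Number of CHR hexamers (red) and CCAAT boxes (blue) by distance of their first base from the gene start, in bins of 10 bases, over the promoter windows of 41 mitosis and spindle genes. CHR hexamers are most frequent within 50 bases after the start, CCAAT boxes mostly before it.

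The deposited values are whole numbers that follow the same distribution in every library, so they are normalized scores and not raw counts, and the sequencing depth is unknown. Library totals lay between 10193036 and 10234768, and across genes the 2 replicates of a group had a Pearson r between 0.986 and 0.990. The libraries were not of stellate cells alone. The summed level of 14 endothelial markers was 229847 and 159927 in quiescent, 925 and 813 in activated, 9295 and 9053 in miR-15a and 1264 and 1656 in control microRNA libraries. The sum of 12 macrophage markers was 138107 and 159692, 1958 and 1777, 13072 and 14368, and 2549 and 2317 in the same order. Both sums were higher with miR-15a than with the control microRNA, without overlap. In limma's test all 12 macrophage markers and 12 of the 14 endothelial ones were higher, where 14.4% of all genes were. The endothelial marker Flt1 was lower, at 211 and 222 against 425 and 444, where 15.4% of all genes were. Pecam1 was at 2865 and 2570 with miR-15a against 18 and 48 in control libraries, and Marco at 1124 and 1353 against 1 and 4. Pecam1 and Marco were each at 0 in activated library b. Of 9 hepatocyte markers the sum was 11652 and 9592, 329 and 453, 1291 and 1804, and 213 and 1217, and Apoa1 and Fgb were at 0 in control library a. Of the lymphocyte and neutrophil markers only Cd3g was measured, at 7 or below. Markers of activated stellate cells, 10 genes such as Acta2 and Col1a1, summed to 532431 and 523691 in activated, 482899 and 362776 in miR-15a and 451885 and 399652 in control libraries, against 3446 and 3806 in quiescent ones. Col1a2 alone stood at 125636, the highest value of the table, in all 6 libraries of activated cells. Of the 10, 3 were lower with miR-15a than with the control and 0 higher, where 15.4% and 14.4% of all genes were. The 3 were Postn, at 8724 and 8724 against 24099 and 20500 (-1.35), Col1a1 (-0.77) and Pdgfrb (-0.44). Markers of quiescent stellate cells, 11 genes such as Reln and Hgf, summed to 20387 and 21495 in quiescent libraries and to between 4455 and 5218 in the others. Of the 11, 2 were higher and 9 lower in activated than in quiescent cells, where 45.4% and 34.1% of all genes were. With miR-15a 4 were higher and 2 lower than with the control, where 14.4% and 15.4% of all genes were. Among them were Reln at 67 and 82 against 11 and 6 and Hgf at 340 and 358 against 138 and 129. Dcn was at 2106 and 1856 against 3682 and 3263. Of 5 cholangiocyte markers only Spp1 and Sox9 were measured, and Krt7, Krt19 and Epcam were absent. Spp1 and Sox9 summed to 75 and 66 in quiescent libraries and to between 481 and 801 in the others. These 2 genes alone do not show that cholangiocytes were present. The Y-linked gene Ddx3y was at 44 and 40 in quiescent, 2606 and 2570 in activated, 1046 and 1006 in miR-15a and 1282 and 1268 in control libraries, and Xist, transcribed from the inactive X chromosome, at 8724 and 8724, 169 and 21, 3373 and 3373, and 3373 and 5027 in the same order, so transcripts that mark sex also differed between groups. The part of these differences in the results on mitotic genes was not tested. In such bulk libraries, fewer dividing cells and less RNA per dividing cell cannot be told apart.

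**Figure D2:**
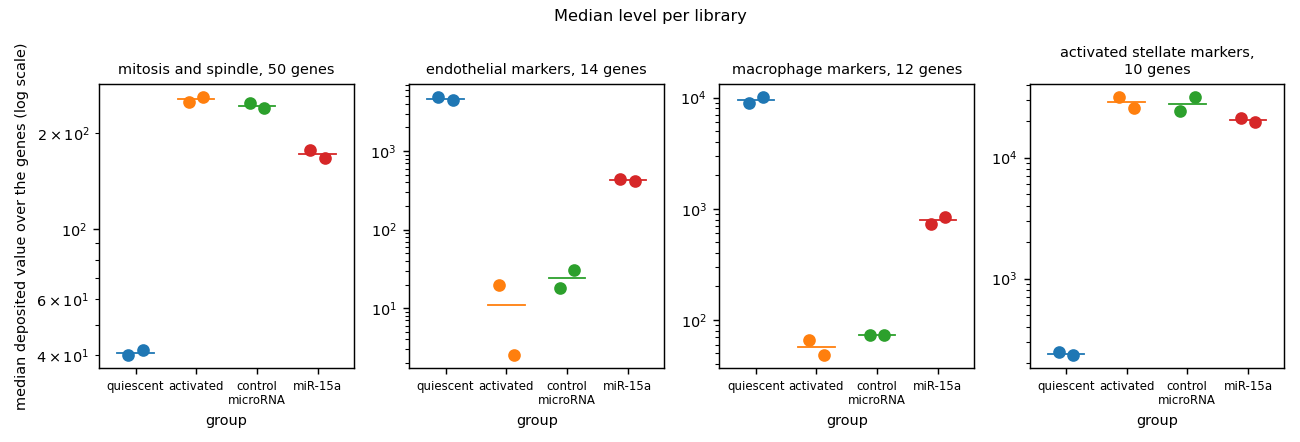
Median deposited value (log axis, a different range in each panel) of the 50 mitosis and spindle genes and of the endothelial, macrophage and activated stellate cell markers in each library; points are the 2 libraries of a group and bars their mean. The mitotic genes are lowest in quiescent libraries and lower with miR-15a than with the control microRNA, while the medians of the endothelial and macrophage markers are higher with miR-15a than with the control.

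Activation was accompanied by a rise of nearly the whole set. The median level over the 50 genes was 40 and 41.5 in the quiescent libraries and 251 and 259 in the activated ones, while the median of all genes was at 185 or 186 in every library, as the normalization fixes it. In limma's test across 13150 genes with Benjamini-Hochberg adjustment, at an adjusted p under 0.05, 49 members were higher in activated cells and Pttg1 was lower. Of all genes tested 45.4% were higher and 34.1% lower. After median-ratio scaling of the deposited values, 48 members stayed higher, Bub3 being lost, and the all-gene counts of 5968 higher and 4483 lower became 4775 and 5414. The median log2 fold change, on the log2(value + 5) scale used for every fold change here, was 2.78 over the members and 0.21 over all genes. All 49 calls held when any 1 of the 8 libraries was left out. Both activated libraries exceeded both quiescent ones for those 49 genes and for 51.1% of all genes. The quiescent libraries are also those rich in endothelial and macrophage transcripts.

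**Figure D3:**
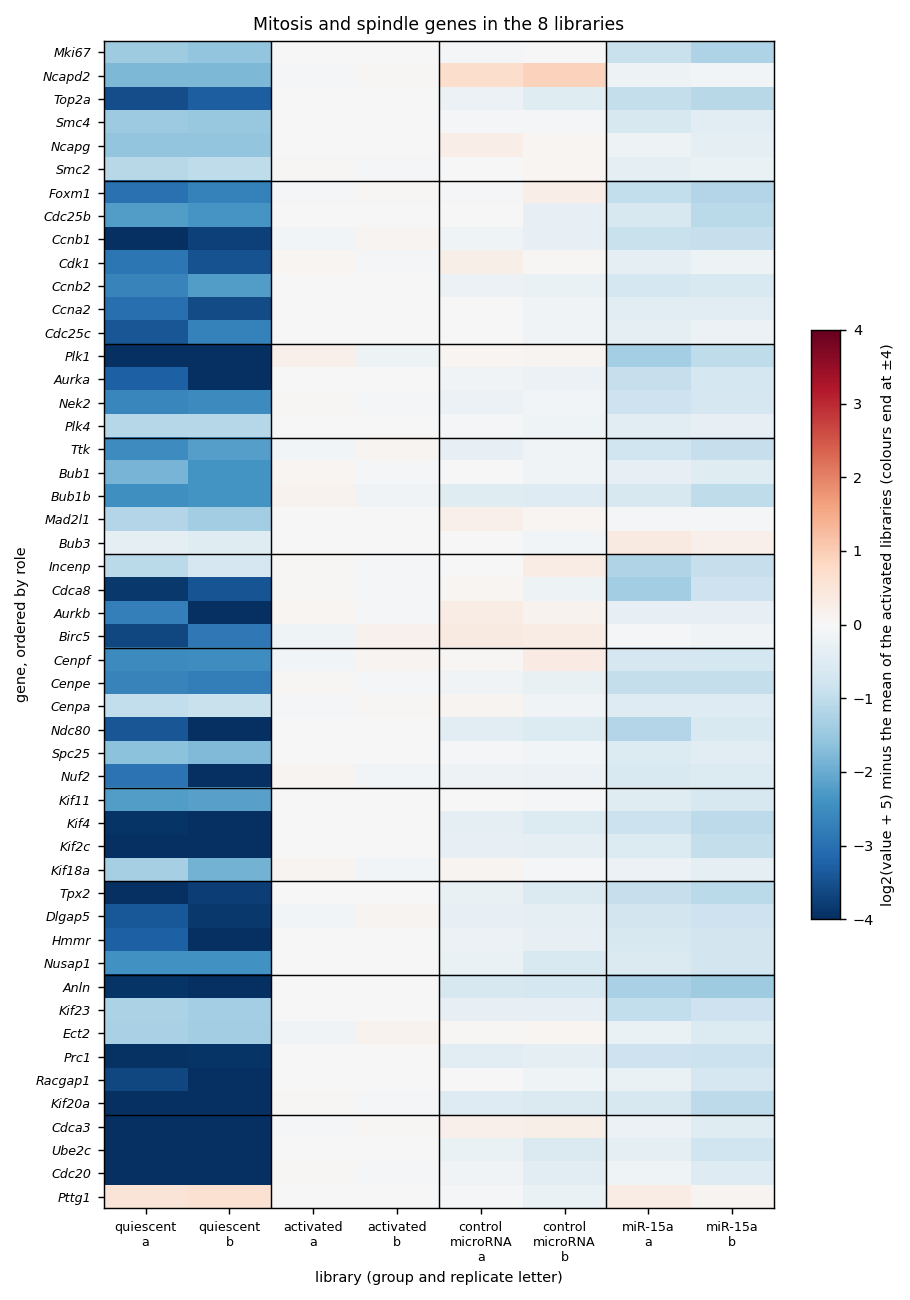
Level of each of the 50 genes in the 8 libraries as log2(value + 5) minus the mean of the 2 activated libraries; blue is lower and red higher, colours end at 4 in either direction, and lines part the roles and the groups. Nearly every gene is lowest in quiescent cells, and most are paler blue with miR-15a; Pttg1 is highest in quiescent cells.

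With miR-15a added to activated cells, 25 of the 50 genes were lower than with the control microRNA, Bub3 and Pttg1 were higher, and 23 did not pass the test. Of all genes 15.4% were lower and 14.4% higher. Each gene's standard error (SE) draws on the spread within all 4 groups, quiescent cells included. The median log2 difference between a member's replicates was 0.29 in quiescent and 0.06 in activated libraries. It was 0.16 in miR-15a and 0.13 in control libraries. Median-ratio scaling gave 22 lower members, with 1584 of all genes lower and 2311 higher in place of 2029 and 1897. The members' median log2 fold change was -0.46, against -0.07 over all genes. Both miR-15a libraries lay below both control libraries for 45 of 50 members and for 38.2% of all genes. The exceptions were Bub3 and Pttg1, which were above, and Nusap1, Ube2c and Cdc20, which overlapped. Among genes whose activated level exceeded the quiescent one by a log2 fold change above 1, 26.6% of 3160 were lower with miR-15a, and 23 of the 46 members in that class were (50%). Leaving out miR-15a library b, or leaving out control library a, reduced the count of 25 to 16. In the 8 fits that each left out 1 library, 13 of the 25 calls held every time: Mki67, Top2a, Prc1, Plk1, Incenp, Cenpe, Cenpf, Kif11, Kif23, Anln, Foxm1, Smc4 and Ncapd2. Against quiescent cells, 48 members were higher with miR-15a (37.1% of all genes were), Pttg1 was lower (34.4% of all genes were), and Incenp did not pass the test. The smallest of the 48 differences were those of Kif23, Cenpa and Mki67, at 0.41, 0.42 and 0.45. Without quiescent library b the Mki67 and Pttg1 calls against quiescent cells were lost, and Cenpa's was lost without quiescent library a or either miR-15a library. Pttg1's was also lost without miR-15a library b.

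**Figure D4:**
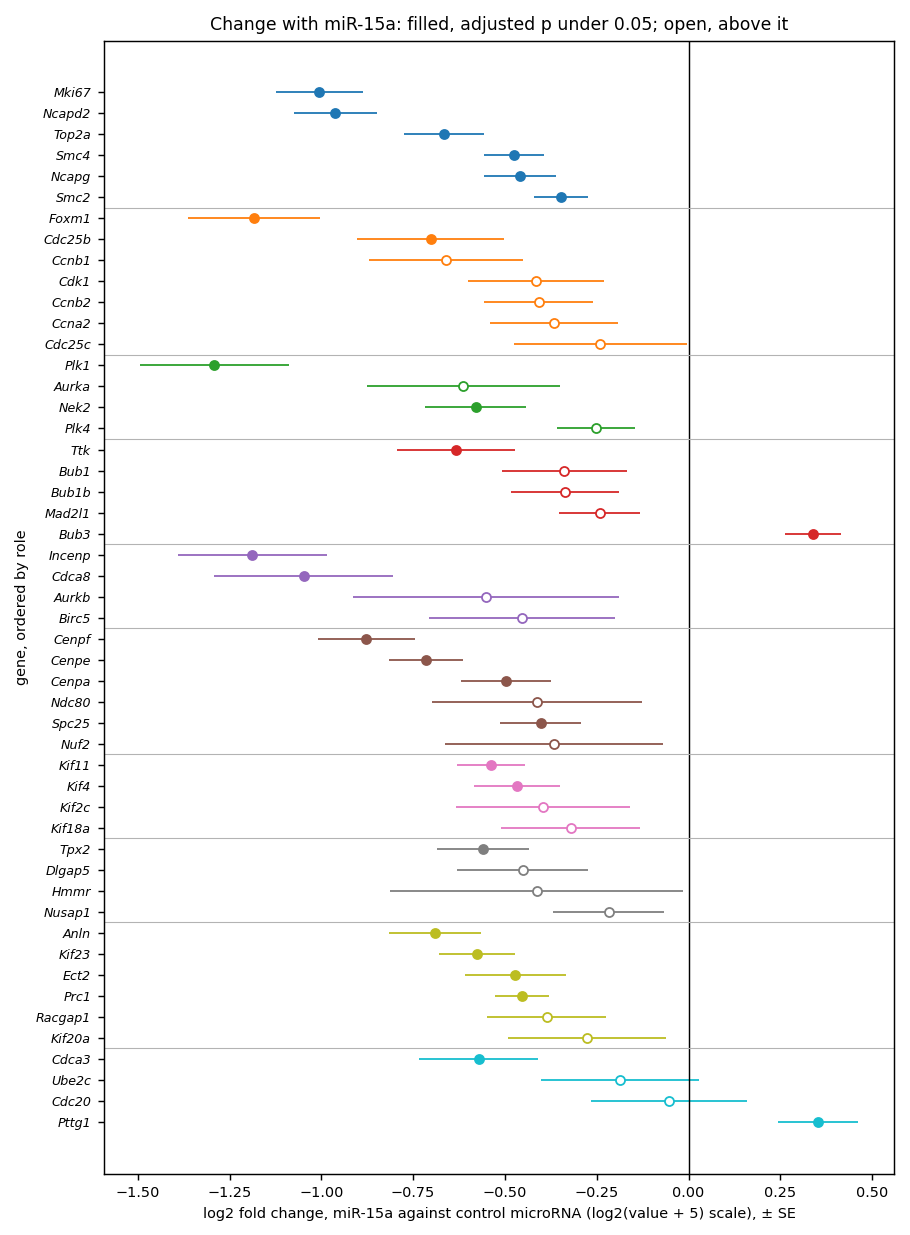
Log2 fold change of each gene with miR-15a against the control microRNA (log2(value + 5) scale), with its standard error, coloured by role; filled points have an adjusted p under 0.05. Of the 50 points 48 lie left of 0, led by Plk1, Incenp, Foxm1, Cdca8 and Mki67.

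The activated cells without added microRNA served as a second reference. Against them 32 members were lower with miR-15a (21.6% of all genes were), Bub3 was higher (16.8% of all genes were), and the median log2 fold change was -0.66 over the members and -0.10 over all genes. Both miR-15a libraries lay below both activated ones for 47 members and for 43.1% of all genes. The count of 32 fell to 18 without activated library b, and the Bub3 call was lost without either activated library or miR-15a library a. Median-ratio scaling gave 26 lower members, with 1644 of all genes lower and 3113 higher in place of 2841 and 2204. Between the control microRNA and activated cells 4 members passed the test: Anln (-0.67), Kif4 (-0.48) and Prc1 (-0.39) were lower, where 6.61% of all genes were, and Ncapd2 (0.81) was higher, where 7.18% were. Both control libraries lay below both activated ones for 27 members and for 34.3% of all genes. With median-ratio scaling the all-gene counts of 869 lower and 944 higher became 494 and 1371, and the Kif4 call was lost. None of those 3 lower calls held in every fit without 1 library, and the count was 0 without activated library a, activated library b or control library b. By group means, 34 members were ordered quiescent, miR-15a, control microRNA, activated from low to high, and 13 had the activated and control groups exchanged. Pttg1, Incenp and Bub3 each had an order of their own.

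Among proliferation markers and chromosome condensation genes, all 6 rose on activation and all 6 fell with miR-15a relative to the control. The shares of all genes that did so were 45.4% and 15.4%. Mki67 encodes Ki-67, the classic marker of cycling cells, which coats mitotic chromosomes. Its values were 321 and 289 in quiescent, 870 and 881 in activated, 475 and 370 in miR-15a and 824 and 870 in control libraries. The miR-15a libraries lay between quiescent and the other activated libraries, without overlap, and Mki67 fell by 1.01 with miR-15a (SE 0.12, adjusted p = 0.00093, limma). Top2a encodes topoisomerase II alpha, which untangles sister chromatids, and stood at 148 and 176, 1772 and 1810, 920 and 830, and 1506 and 1282 in quiescent, activated, miR-15a and control libraries. It rose by 3.43 on activation (SE 0.11) and fell by 0.67 with miR-15a (adjusted p = 0.0044, limma). The condensin subunits Smc2, Smc4 and Ncapg fell with miR-15a by 0.35, 0.48 and 0.46. The Smc2 call was lost without miR-15a library a or control library b, and the Ncapg call without miR-15a library b or control library a. Ncapd2, another condensin subunit, stood apart. It was at 46 and 46, 166 and 175, 149 and 157, and 281 and 326, so that the control libraries were the high ones. Its fall of 0.96 against the control came with a difference of -0.15 against activated cells (adjusted p = 0.33, limma).

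The cyclins, CDK1, its activators and Foxm1, grouped here with them, all rose on activation, 7 of 7, where 45.4% of all genes did. Ccnb1, the cyclin B that drives entry into mitosis, went from 12 and 22 in quiescent to 326 and 380 in activated libraries, and was at 186 and 185 with miR-15a and 312 and 281 with the control. The 2 miR-15a values were below both control values, yet the difference of -0.66 (SE 0.21) narrowly missed the threshold (adjusted p = 0.0506, limma). Against activated cells Ccnb1 fell by 0.91 (adjusted p = 0.013, limma), a call lost without activated library b or either miR-15a library. Foxm1 encodes the transcription factor that activates late cell cycle genes, many of them in this set. Its values were 12 and 16, 126 and 136, 63 and 55, and 124 and 158 in quiescent, activated, miR-15a and control libraries. The miR-15a libraries lay between the quiescent and the other activated libraries, without overlap, and Foxm1 fell by 1.18 (SE 0.18, adjusted p = 0.0030, limma), a call kept under all 17 alternative settings. Cdc25b, a phosphatase that activates CDK1, fell by 0.70, a call lost in the fits without miR-15a library b, either control library or either activated library. Cdk1 itself, at 75 and 48, 628 and 556, 458 and 514, and 690 and 610, had a difference of -0.42 (SE 0.19, adjusted p = 0.14, limma). Ccna2, Ccnb2 and Cdc25c also did not pass, with differences of -0.37, -0.41 and -0.24.

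All 4 mitotic kinases outside the checkpoint rose on activation, where 45.4% of all genes did. Plk1 and Nek2 fell with miR-15a relative to the control, where 15.4% of all genes did. Polo-like kinase 1 (chr7:122159439-122169873, GRCm38, plus strand) drives centrosome maturation, spindle assembly and cytokinesis. Plk1 was at 1 and 2 in quiescent, 150 and 112 in activated, 47 and 62 in miR-15a and 138 and 141 in control libraries. Both miR-15a values were under the lowest of the other activated values. Plk1 rose by 4.38 on activation (SE 0.20) and fell by 1.29 with miR-15a (SE 0.20, adjusted p = 0.0036, limma), a call kept under all 17 alternatives. Nek2, a centrosome kinase, fell by 0.58, a call lost without miR-15a library a or control library b. Aurka, the Aurora kinase of the spindle poles, was at 25 and 11, 278 and 286, 148 and 170, and 254 and 237. Its difference from the control was -0.61 (SE 0.26, adjusted p = 0.12, limma), although the libraries did not overlap. That SE also holds the gap between its quiescent libraries. Plk4, the kinase of centriole duplication, had a difference of -0.25 and did not pass.

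The spindle checkpoint, which holds anaphase until every chromosome is attached, is represented by 5 genes. All 5 rose on activation, where 45.4% of all genes did. With miR-15a relative to the control 1 fell and 1 rose, where 15.4% and 14.4% of all genes did. Ttk, the checkpoint kinase MPS1, was at 24 and 31, 149 and 171, 90 and 81, and 126 and 145, and fell by 0.63 with miR-15a (SE 0.16, adjusted p = 0.024, limma). That call was lost without either miR-15a library or without control library b. Bub1b, which encodes BUBR1, stood at 58 and 62, 376 and 314, 217 and 168, and 244 and 241. It differed by -0.34 from the control, which did not pass, and fell by 0.83 against activated cells (adjusted p = 0.0044, limma). Bub3, the partner that carries BUB1 and BUBR1 to kinetochores, was at 632 and 590, 804 and 838, 1050 and 940, and 804 and 765, so its miR-15a libraries were the highest of all 8. Bub3 rose by 0.34 with miR-15a (SE 0.08, adjusted p = 0.015, limma), lost without miR-15a library a or control library b. Its rise of 0.42 on activation became 0.15 under median-ratio scaling (adjusted p = 0.102, limma). Bub1 and Mad2l1 had differences of -0.34 and -0.24 and did not pass.

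The chromosomal passenger complex corrects faulty attachments and guides cytokinesis, and consists of the kinase Aurora B (Aurkb), INCENP, borealin (Cdca8) and survivin (Birc5). All 4 genes rose on activation, and the scaffold and borealin fell with miR-15a against the control, where 45.4% and 15.4% of all genes did. Incenp was at 30 and 41 in quiescent, 71 and 66 in activated, 27 and 34 in miR-15a and 67 and 85 in control libraries. It thus overlapped the quiescent range with miR-15a, the only member to do so (difference from quiescent -0.18, SE 0.20, adjusted p = 0.45, limma). Against the control Incenp fell by 1.19 (SE 0.20, adjusted p = 0.0050, limma), a call kept under all 17 alternatives. Cdca8, whose promoter is shown above, was at 1 and 3, 85 and 79, 28 and 44, and 86 and 71 and fell by 1.05 (SE 0.24, adjusted p = 0.017, limma). The Cdca8 call was lost without miR-15a library a or control library a. Aurkb and Birc5 had differences of -0.55 and -0.45 with adjusted p of 0.29 and 0.22 (limma). Birc5 was at 5 and 12, 104 and 135, 112 and 106, and 155 and 147, with miR-15a and activated libraries overlapping.

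At the centromere and outer kinetochore, where microtubules attach, 6 of 6 genes rose on activation and 4 fell with miR-15a against the control. The shares of all genes that did so were 45.4% and 15.4%. Cenpf, a large kinetochore protein, was at 40 and 42, 238 and 276, 159 and 154, and 264 and 322 and fell by 0.88 (SE 0.13, adjusted p = 0.0029, limma). Cenpe, the kinetochore motor that brings chromosomes to the spindle equator, was at 56 and 52, 398 and 366, 196 and 195, and 342 and 307. Its miR-15a libraries were close to each other and below all other activated libraries, and Cenpe fell by 0.71 (SE 0.10, adjusted p = 0.0022, limma). Cenpa, the histone variant that marks centromeres, and Spc25, of the NDC80 complex, fell by 0.50 and 0.40. The Cenpa call was lost without either miR-15a library or control library a, and the Spc25 call without any 1 of the activated, miR-15a and control libraries. Ndc80 was at 9 and 3, 146 and 146, 62 and 93, and 108 and 98. Its replicates were far apart in the quiescent and in the miR-15a libraries, and its difference of -0.41 (SE 0.29) did not pass (adjusted p = 0.32, limma). Nuf2, its partner, differed by -0.37 and did not pass either.

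Motors and spindle assembly factors rose without exception on activation, 8 of 8, where 45.4% of all genes did. Kif11 encodes Eg5, which pushes the spindle poles apart. It was at 80 and 85, 401 and 392, 283 and 253, and 404 and 378, and fell by 0.54 with miR-15a (SE 0.09, adjusted p = 0.0054, limma). Kif4, a chromosome-arm motor, fell by 0.47, a call lost without miR-15a library b or control library a. Kif2c, a microtubule depolymerase, was at 6 and 2, 194 and 198, 134 and 98, and 156 and 149, with a difference of -0.40 that did not pass, as did not that of Kif18a at -0.32. Tpx2, which activates Aurora A and nucleates spindle microtubules, was at 60 and 74, 1068 and 1076, 563 and 510, and 870 and 722. Tpx2 fell by 0.56 (SE 0.12, adjusted p = 0.014, limma), a call lost without miR-15a library b or control library a. Hmmr, a microtubule-binding protein of the spindle, was at 40 and 11, 428 and 436, 274 and 255, and 366 and 342. The wide gap between its quiescent libraries gave it an SE of 0.40, and its difference of -0.41 did not pass. Dlgap5 and Nusap1 differed by -0.45 and -0.22 and did not pass.

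The central spindle and cytokinesis genes, which complete cell division, rose in 6 of 6 cases on activation, where 45.4% of all genes did. With miR-15a, 4 of them fell against the control, where 15.4% of all genes did. Anln, the actin-binding protein anillin of the cleavage furrow, was at 83 and 62, 1308 and 1332, 533 and 489, and 842 and 813. The control libraries already lay below the activated ones, and the miR-15a libraries lay below both. Anln fell by 0.69 against the control (SE 0.13, adjusted p = 0.0064, limma) and by 1.36 against activated cells. Prc1, which bundles antiparallel microtubules, and Kif23, a subunit of centralspindlin, fell by 0.45 and 0.58. Ect2, the exchange factor that activates RhoA at the equator, fell by 0.47, a call lost without either quiescent library, either control library or miR-15a library b. Racgap1, the other centralspindlin subunit, differed by -0.39 and did not pass. Kif20a, the motor that carries the passenger complex to the midzone, was at 34 and 20, 765 and 731, 483 and 359, and 516 and 496, with a difference of -0.28 that did not pass.

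The anaphase-promoting complex ends mitosis by marking proteins for destruction, and the members tied to it are its activator, its conjugating enzyme and substrates. Of these 4 genes 3 rose on activation and 1 fell with miR-15a relative to the control, where 45.4% and 15.4% of all genes did. Cdc20, its mitotic activator, rose by 4.91 on activation (SE 0.21), from 6 and 11 to 410 and 377. With miR-15a Cdc20 was at 347 and 272 and with the control at 358 and 284, overlapping ranges with a difference of -0.05 (SE 0.21, adjusted p = 0.87, limma). Ube2c, the ubiquitin-conjugating enzyme of the complex, rose by 4.61 and differed by -0.19 from the control, also with overlap. Cdca3, a trigger of mitotic entry and a substrate of the complex, was at 5 and 3, 150 and 157, 130 and 108, and 176 and 181, and fell by 0.57 (SE 0.16, adjusted p = 0.034, limma). The Cdca3 call was lost without any 1 of the activated, miR-15a and control libraries. Pttg1 encodes securin, the substrate that holds back separase until anaphase. It was at 276 and 292 in quiescent, 191 and 192 in activated, 236 and 206 in miR-15a and 184 and 160 in control libraries, so its quiescent libraries were the highest. Pttg1 fell by 0.56 on activation (SE 0.11, adjusted p = 0.0022, limma), the only member to do so. Its rise of 0.35 with miR-15a (adjusted p = 0.047, limma) was kept in 5 of 17 alternatives and lost in 7 of the 8 fits without 1 library.

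**Figure D5:**
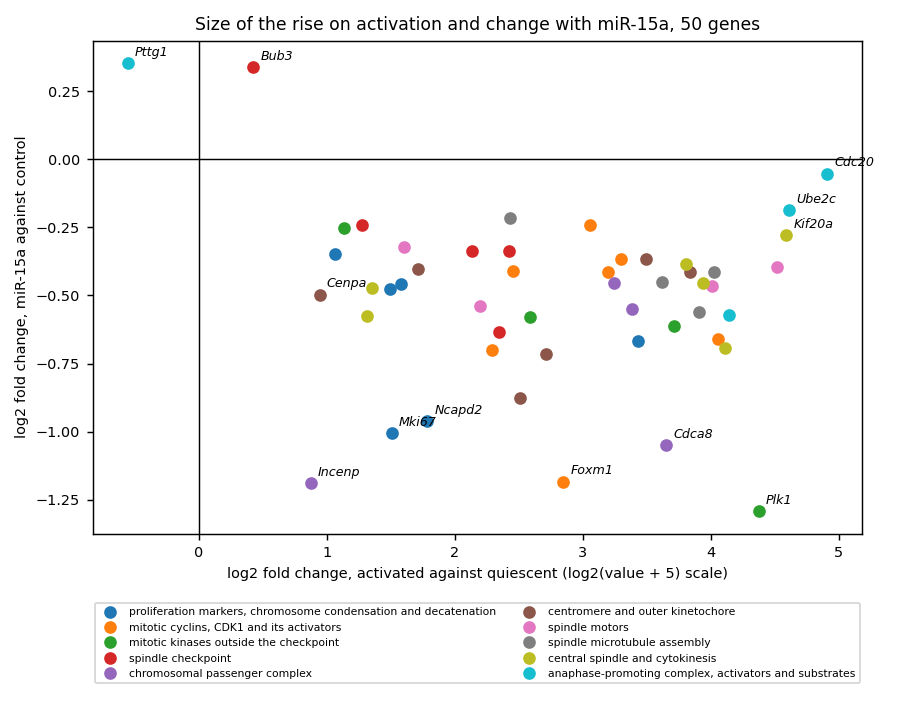
Log2 fold change on activation (horizontal) against log2 fold change with miR-15a relative to the control microRNA (vertical) for the 50 genes, coloured by role. Genes with a like rise on activation differ widely in the second comparison: Plk1 and Cdc20 rose by 4.38 and 4.91, and differed by -1.29 and -0.05 with miR-15a.

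Sites for the miR-15a seed were sought in the members' 3′ UTRs, taken from the GENCODE M21 transcript with the longest 3′ UTR of each gene. A 7-base match, TGCTGCT, was found in 7 of 50 members (14%), whose 3′ UTRs had a median length of 634 bases, and in 24.4% of 11872 tested genes, whose median length was 1195. The longer match TGCTGCTA was in 1 member (2%), Kif23, and in 4.55% of all. The 7 genes were Cdk1 with 3 matches, Hmmr with 2, and Aurka, Birc5, Cdc25b, Kif23 and Nusap1 with 1 each. Matches that share bases were each counted, as those from 3′ UTR bases 909 and 912 of Hmmr and 1230 and 1233 of Cdk1. Of these 7, Cdc25b and Kif23 fell with miR-15a relative to the control, and of the 43 without a match 23 fell. Of all genes 15.4% did. The medians of these log2 fold changes were -0.45 and -0.46. Against activated cells 4 of the 7 and 28 of the 43 fell, where 21.6% of all genes did. The 43 genes without a match include Plk1, Foxm1, Incenp, Cdca8 and Mki67. The sites of the pair that fell and the first of Cdk1 are shown with the bases around them, the match in capitals, on the transcript's strand (GRCm38). All lie in the last exon of their transcript: exon 23 of Kif23 at chr9:61917466-61917472 (minus), exon 15 of Cdc25b at chr2:131198085-131198091 (plus) and exon 8 of Cdk1 at chr10:69337700-69337706 (minus).
Kif23: aaaaaaacaaacaaaTGCTGCTattgatta
Cdc25b: tcgctggtcagcactTGCTGCTgggcaatg
Cdk1: ggagccgtatcgctgTGCTGCTtagtgtaa

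Grouped by promoter, 31 members with a CHR hexamer had a median log2 fold change of -0.47 with miR-15a relative to the control, and 19 of them fell. For the 10 members without one the median was -0.34, and 2 fell, Cenpe and Nek2. For the 9 members with no promoter entry the median was -0.48, and 4 fell. Of all genes 15.4% were lower in this comparison. The medians on activation were 2.51, 2.51 and 3.30. Neither a CHR hexamer nor a CCAAT box stood in the windows of 7 members, Nuf2, Kif18a, Nusap1, Plk4, Mad2l1, Pttg1 and Birc5. None of these 7 passed as lower with miR-15a relative to the control, where 15.4% of all genes did, and their median was -0.25. Against activated cells 2 of them fell, Nusap1 and Plk4, where 21.6% of all genes did. For Plk4, Mad2l1 and Pttg1 the GENCODE start lies outside the window searched. These groups were formed after earlier results of the same data were known, and the differences between them were not tested.

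A list of other mitotic genes outside the set was described in the same way. Of 76 tested, 69 rose on activation and 2 fell, where 45.4% and 34.1% of all genes did. With miR-15a relative to the control, 24 fell (31.6%, against 15.4% of all genes) and 0 rose (against 14.4%) in limma's test. The median was -0.34. The 24 became 7 without control library b, 9 without miR-15a library b, 13 without miR-15a library a and 14 without control library a. Espl1, which encodes separase, the protease held back by securin, was at 4 and 3, 84 and 98, 40 and 51, and 108 and 132 and fell by 1.31 (SE 0.19, adjusted p = 0.0024, limma). Aspm, a spindle pole protein, fell by 0.93, and Casc5, the kinetochore scaffold KNL1, by 0.59. Of 23 core subunits of the anaphase-promoting complex and cohesin, 4 fell (17.4%, against 15.4% of all genes) and 1 rose, and the 4 became 1 without miR-15a library a, and 2 without miR-15a library b or control library b. Cdc27 fell by 0.59, and the cohesin subunit Stag2 rose by 0.95, from 1614 and 1824 in control to 2992 and 3684 in miR-15a libraries.

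Genes of DNA replication and S phase were taken as a second list. Of 40 tested, 23 rose (57.5%, against 45.4% of all genes) and 6 fell (15%, against 34.1%) on activation. With miR-15a relative to the control, 7 fell (17.5%, against 15.4%) and 0 rose (against 14.4%), with a median of -0.20. Against activated cells 3 of the 40 were lower with miR-15a (7.5%, against 21.6% of all genes) and 8 higher (20%, against 16.8%). With the control microRNA 8 were higher than in activated cells (20%, against 7.18%). The first 8 became 5 without activated library b and 4 without miR-15a library b. The second 8 became 5 without activated library a or either control library, and 3 without activated library b. Rrm2, a subunit of the enzyme that makes deoxynucleotides, fell by 0.56 against the control, and Chaf1a, a histone chaperone of replicating DNA, by 1.13. Of 19 regulators of the DREAM and E2F group, 6 fell against the control (31.6%, against 15.4% of all genes) and 1 rose (5.26%, against 14.4%). The 6 became 2 without miR-15a library b and 3 without either control library. E2f7, a repressor of the E2F family, was at 12 and 15, 51 and 48, 21 and 16, and 42 and 48 and fell by 1.09, while E2f1 differed by 0.07 (adjusted p = 0.73, limma). The E2F partner Tfdp1 fell by 0.53, and Rb1, the retinoblastoma protein, rose by 0.30. Whether these lists differed from the mitotic genes was not tested.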

How the data were processed

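RNA from 8 libraries of mouse hepatic stellate cells was sequenced single-end after TRIzol extraction and TruSeq preparation, per the labels' protocols. STAR, Subread, featureCounts and mm10 are named without versions in the submitters' processing notes. The deposited table gives a normalized score per gene: the 910 distinct whole numbers found in one library are those of every other, as after quantile normalization, a step not recorded in the sources used here. Such values hide any overall change in RNA amount. Sequencing depth is unknown and counting intervals cannot be had.

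Genes reaching 10 in 2 or more libraries (13150) were fitted as log2(value + 5) with limma 3.58.1 (R 4.3.3): 4 group means, 4 residual degrees of freedom, a prior following the mean level, Benjamini-Hochberg adjustment over all genes and a threshold of 0.05. The fit was tested on simulated data. Motifs were sought in RefSeq promoter windows at each gene's first listed start and in GENCODE M21 3′ UTRs. Values in every library are given for the member of each role with the highest mean, the largest change with miR-15a and the largest on activation, and for a few chosen after their values were seen. Of each other list up to 4 genes with the smallest p for miR-15a and 2 for activation could be named. The members and lists were chosen with earlier results of these data known. Alternatives covered the pseudocount, filter, scaling, variance prior, groups fitted, replicate block, a fold limit and each library left out in turn.

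The annotation overlaps 17 of the 50 members with exons of another gene, 11 with one in the table, among them Prc1 with Rccd1, Ccna2 with Exosc9, Cdc20 with Elovl1, Cdc25b with Spef1, Kif4 with Pdzd11, Nusap1 with Oip5, Ncapg with Lcorl and Cdca8 with 9930104L06Rik. Whether reads were counted by strand is not given in the sources used here, so reads of such pairs may be shared.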

Additional observations from a re-analysis of the deposited data

How the results depend on the processing

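The counts of members higher on activation (49) and higher with miR-15a than in quiescent cells (48) stayed within 1.5 times under every alternative run. With a log2 fold change over 1 also required, members lower with miR-15a went from 25 to 5 against the control and from 32 to 7 against activated cells, and those lower with the control microRNA from 3 to 0. With each library left out in turn, these 3 counts ranged from 16 to 32, 18 to 36 and 0 to 4. Of 4250 single-gene values, 32 changed sign, none of them called. Median-ratio scaling moved the median log2 fold change of all genes from 0.21 to -0.06 on activation, from -0.10 to 0.04 for miR-15a against activated cells and from 0.04 to -0.08 for miR-15a against quiescent cells. Members higher than quiescent cells then numbered 48 on activation and 47 with miR-15a. Under this scaling Cdc20 turned to 0.0081 against the control, Mad2l1 to 0.053 and Birc5 to 0.022 against activated cells, and with the control microRNA against activated cells Mki67 turned to 0.034, Bub1 to 0.021, Bub3 to 0.017, Cdc25c to 0.015, Cdca8 to 0.014, Cenpa to 0.056, Kif11 to 0.061, Racgap1 to 0.0023 and Smc4 to 0.017. The causes were not tested.

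With each library left out in turn, values ranged from -0.23 to 0.12 for Cdc20 and from -0.39 to 0.013 for Ube2c against the control, from -0.30 to 0.064 for Birc5 against activated cells and from -0.38 to 0.013 for Incenp against quiescent cells. For the control microRNA against activated cells the ranges were -0.15 to 0.032 for Bub1, -0.14 to 0.017 for Cdc25c, -0.10 to 0.30 for Plk1, -0.029 to 0.29 for Incenp, -0.19 to 0.066 for Cdca8, -0.15 to 0.096 for Cenpa, -0.068 to 0.027 for Kif11, -0.096 to 0.14 for Kif18a, -0.086 to 0.20 for Ect2, -0.16 to 0.00011 for Racgap1, -0.075 to 0.26 for Foxm1 and -0.0019 to 0.091 for Smc2.

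No effect of the letters a and b shared between groups was seen: correlations of their deviations lay between -0.07 and 0.09. Such values cannot tell whether libraries of the same letter came from the same animal or culture. A replicate block gave 25 members lower against the control, 33 lower against activated cells, 3 lower for the control microRNA, and 49 and 48 higher than quiescent cells. Depth is unknown and 2 libraries per group limit the precision.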
